A study of Mus musculus with 6 samples.

Results

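Eph receptors, ephrins, semaphorins, plexins and neuropilins are cell-surface and secreted proteins that tell cells where to move, stop and settle. The set described here was chosen by gene symbol alone: every gene on the array named as an EphA or EphB receptor, an ephrin-A or ephrin-B, a semaphorin of classes 3 to 7, a plexin, or neuropilin 1 or 2. It comprised 52 of the 23279 genes measured: 13 Eph receptors, 8 ephrins, 20 semaphorins and 11 plexins and neuropilins. The symbol rule used no measured value, but the set was chosen with earlier results of these data known.

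Eph receptors are receptor tyrosine kinases that bind ephrins on a neighbouring cell, and signals run into both cells, usually altering the actin cytoskeleton and adhesion. Semaphorins signal mainly through plexins, which act on small GTPases, and the secreted class 3 members mostly need a neuropilin to bind. In skeletal muscle these families are known for placing motor axons, guiding vessels and directing the movement of muscle precursors, and EphB receptors are known targets of beta-catenin and TCF in the intestinal epithelium.

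The series asks how stabilized beta-catenin, through which canonical Wnt signals reach the nucleus, changes gene expression in primary myoblasts, the precursor cells of muscle fibres. All cultures came from limb muscle of C57bl6N mice that carry a tamoxifen-inducible Cre recombinase driven by Pax7 (Pax7-CreERT2) and 1 beta-catenin allele with loxP sites around exon 3, so controls carry both alleles too. The cells had been through 5 passages and then 24 hours of serum withdrawal, and were given 4-hydroxytamoxifen in ethanol (3 activated cultures) or ethanol alone (3 control cultures). Tamoxifen exposure and recombination differ together between the groups and cannot be told apart, the fraction of cells recombined is not given in the sources used here, and whether the cultures came from separate animals is not given either, so p-values reflect culture-to-culture spread only.

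Values are log2 expression, so a difference of 1 is a 2-fold difference. Arrays correlated at 0.862 to 0.962 between the groups and at 0.892 to 0.959 within them, and the most similar pair of arrays overall was control replicate 2 with activated replicate 3. Beta-catenin itself (Ctnnb1) was at 8.54, 8.71 and 8.30 in controls and 7.91, 8.79 and 8.91 in activated cultures, but its probe set summarizes the whole gene and does not check the loss of an exon. Axin2, a feedback target used as a pathway readout, was at 4.55, 3.81 and 4.58 in controls and at 5.50, 5.85 and 6.54 in activated cultures, without overlap (limma, adjusted p = 0.290). No detection calls were used here, so the 95th percentile of 1083 olfactory receptor genes on each array served as a guide to the level of genes that muscle cells do not express. This olfactory receptor level was not the same on each array, at 4.70, 4.05 and 4.66 in controls and 4.19, 3.86 and 4.21 in activated cultures. The myoblast factors Myod1 and Pax7, at 9.33 and 8.05 on average in controls, were above that level on all 6 arrays. By that guide 22 guidance genes were above the level on all 6 arrays, 17 on some and 13 on none.

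No guidance gene passed an adjusted p of 0.05 (limma, smallest adjusted p = 0.175, for Sema5a), as was true of all genes on the array. Before adjustment 12 of 52 guidance genes, or 23.1%, had p under 0.05, where 7.86% of all genes did. By family the 12 were 8 of 20 semaphorins (40.0%), 2 of 13 Eph receptors (15.4%), 1 of 8 ephrins (12.5%) and 1 of 11 plexins and neuropilins (9.09%). In activated cultures 7 of these were higher (Sema3b, Sema3c, Sema3d, Sema4d, Sema5a, Nrp2 and Ephb3; all genes, 4.44%) and 5 were lower (Sema3e, Sema6b, Sema6d, Ephb6 and Efna5; all genes, 3.42%). After each array's median was subtracted, 10 of the 52 guidance genes were at that level (all genes, 7.98%). Of these, 8 were higher and 2 lower, where 1320 and 537 of the 23279 genes were. That step moved the median difference of all genes from -0.08 to 0.04. Without activated replicate 2 the count was 7 of 52, and the share of all genes was 3.90%. Without control replicate 2 it was 8 of 52, and the share of all genes was 13.2%. The activated and control arrays did not overlap for 14 guidance genes, or 26.9%, where the share among all genes was 12.8%. Of the 14, 8 lay above (all genes, 5.4%) and 6 below (all genes, 7.4%). The median difference of the 52 was -0.10 and that of all genes -0.08, with 19 members higher (all genes, 40.3%) and 33 lower (all genes, 59.7%). Their median absolute difference was 0.35, and that of all genes 0.26. A difference of at least 2-fold was measured for 8 members, or 15.4% (all genes, 6.19%).

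**Figure D1:**
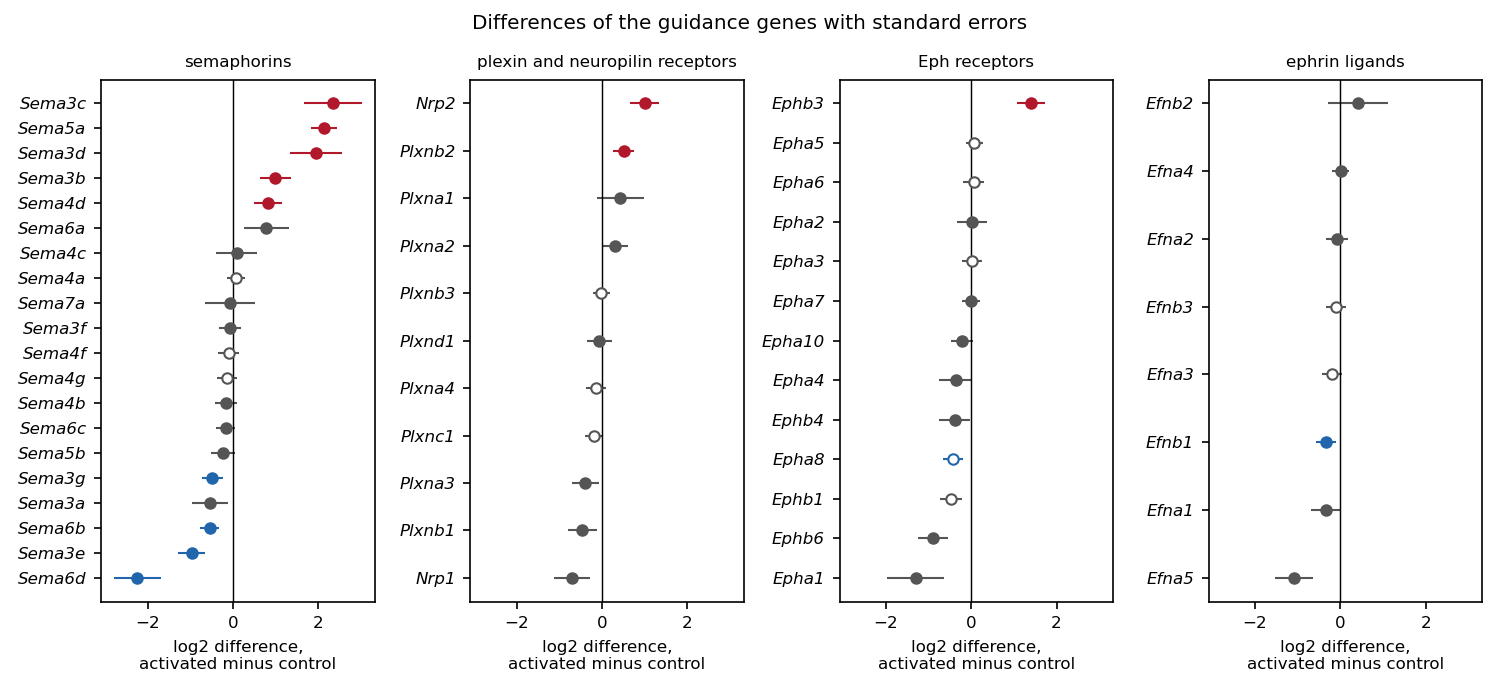
Log2 difference of activated minus control cultures for each of the 52 guidance genes, by family; bars are limma's standard errors. Red marks genes with every activated array above every control array, blue with every one below, grey an overlap, and open symbols genes above the olfactory receptor level on no array; the semaphorins reach from -2.24 (Sema6d) to 2.35 (Sema3c).

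The numbered replicates were taken to pair the arrays, since same-numbered arrays deviated together. With the replicate number as a block in limma, 14 of the 52 guidance genes had an unadjusted p under 0.05 (all genes, 16.6%). After adjustment 0 passed (all genes, 0.133%), the smallest adjusted p being 0.0669, for Epha1. The 14 included Epha1, Sema6a and Ephb1, which had no unadjusted p under 0.05 without the block. Efna5 had one without the block and not with it. Gene lists, standard errors and p-values elsewhere come from the fit of all arrays without the block, unless stated otherwise. They therefore leave the pairing out. With the block the SE was 0.39 for Sema3c, 0.36 for Sema6d and 0.32 for Sema3d (limma, adjusted p = 0.0850, 0.0816 and 0.0846). Without it these were 0.68, 0.55 and 0.61. The SE of Sema5a and Ephb3 changed little, to 0.31 and 0.32, and that of Nrp1 rose from 0.42 to 0.43. Leaving out activated replicate 3, the array closest to a control, let Sema3c (difference 3.19, adjusted p = 0.0462) and Sema6d (-2.93, adjusted p = 0.0406) pass in limma. They were among 28 of the 23279 genes that passed then. When any other single array was left out, 0 genes passed. With the block and without the pair numbered 3, Sema3c, Sema3d, Sema5a, Sema6d, Ephb3 and Efna5 passed, among 492 genes in all. Over all 16 alternatives the adjusted p in limma ran from 0.00886 to 1.00 for Sema3c and from 0.00886 to 1.00 for Sema6d.

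Promoter sequence is shown for 6 of the genes with an unadjusted p under 0.05, chosen because they hold letters of a TCF/LEF core, the element through which beta-catenin acts on a promoter, or (Ephb3) of an E-box, the element of the myogenic factors. Sema4d also held the E-box letters, 90 bases before the start, but its sequence is not shown. Sema5a, Sema6b, Ephb6 and Efna5 held neither in their windows, and Sema3b had no window. RefSeq windows of 300 bases (250 before and 50 after a gene's start, GRCm38.p6) were found for 46 of the 52 genes. They were searched on both strands for the TCF/LEF core in the spellings CTTTGAA or CTTTGAT or CTTTGTA or CTTTGTT, and for the E-box spelled CAGCTG, and no window of a guidance gene held both. The TCF/LEF letters stood in the windows of 8 of 46 guidance genes (17.4%; 18.9% of all genes in the table), and these 8 include 5 of the 11 with an unadjusted p under 0.05, Nrp2, Sema3c, Sema3d, Sema3e and Sema6d, against 3 of the other 35. The E-box letters stood in 9 of 46 (19.6%; 18.3% of all genes), in 2 of the 11 with an unadjusted p under 0.05 (Ephb3 and Sema4d) and 7 of the other 35. A match of letters is a description and not a binding site, and it was found for genes that were higher and for genes that were lower. The split by p comes from these same arrays. The share of windows with the letters among all genes with an unadjusted p under 0.05 was not computed. Whether the letters go with a difference was therefore not tested. Below are the 250 bases upstream of the start on the gene's strand, the plus strand each time, with the matching letters in capitals. They lie at chr1:62703067-62703316 (Nrp2), chr5:12382916-12383165 (Sema3d), chr5:14025026-14025275 (Sema3e), chr2:124653331-124653580 (Sema6d, 1 of its 2 windows) and chr16:21204545-21204794 (Ephb3). For Sema3c the match lies just after the start, and only 30 bases around it are given, chr5:17574809-17574838.
Nrp2: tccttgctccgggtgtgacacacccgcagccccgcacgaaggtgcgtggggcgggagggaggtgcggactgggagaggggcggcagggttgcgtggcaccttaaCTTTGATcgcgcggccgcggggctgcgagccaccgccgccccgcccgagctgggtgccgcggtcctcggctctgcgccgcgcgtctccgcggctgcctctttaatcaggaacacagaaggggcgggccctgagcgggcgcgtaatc
Sema3d: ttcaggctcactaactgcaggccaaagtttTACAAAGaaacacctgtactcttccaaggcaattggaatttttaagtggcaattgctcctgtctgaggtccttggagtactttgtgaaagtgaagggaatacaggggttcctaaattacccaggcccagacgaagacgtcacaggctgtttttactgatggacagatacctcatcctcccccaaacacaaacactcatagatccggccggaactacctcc
Sema3e: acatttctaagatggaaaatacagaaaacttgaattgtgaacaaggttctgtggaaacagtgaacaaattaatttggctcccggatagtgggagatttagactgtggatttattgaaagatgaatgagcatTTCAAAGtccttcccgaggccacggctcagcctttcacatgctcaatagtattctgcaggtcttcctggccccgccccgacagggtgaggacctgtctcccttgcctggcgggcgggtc
Sema6d: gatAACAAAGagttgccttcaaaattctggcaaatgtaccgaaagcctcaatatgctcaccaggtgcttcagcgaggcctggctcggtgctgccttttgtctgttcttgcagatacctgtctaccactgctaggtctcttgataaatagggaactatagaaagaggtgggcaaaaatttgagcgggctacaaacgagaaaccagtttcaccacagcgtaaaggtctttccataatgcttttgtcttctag
Ephb3: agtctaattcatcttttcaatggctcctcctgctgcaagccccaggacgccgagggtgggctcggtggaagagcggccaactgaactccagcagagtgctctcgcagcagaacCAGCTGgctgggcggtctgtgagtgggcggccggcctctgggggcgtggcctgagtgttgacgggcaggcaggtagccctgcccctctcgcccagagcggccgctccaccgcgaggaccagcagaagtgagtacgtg
Sema3c: cgggattctgcTACAAAGaaactcagcacc
The capitals in Nrp2 read CTTTGAT on the gene's own strand, 146 bases before the start. In Sema3d, Sema3e, Sema6d and Sema3c the capitals are a TCF/LEF core read on the opposite strand. Ephb3 carried no TCF/LEF letters in this window, and its capitals are the E-box, 137 bases before the start.

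The secreted class 3 semaphorins went apart. Of 7 members, Sema3b, Sema3c and Sema3d were higher in activated cultures without overlap, Sema3e and Sema3g were lower without overlap, and Sema3a and Sema3f overlapped, so 5 of 7 did not overlap (all genes, 12.8%). An unadjusted p under 0.05 was found for 4 of the 7 (all genes, 7.86%). Sema3c, known for its part in the cardiac outflow tract and in vessel growth, was at 4.77, 4.38 and 3.80 in controls and at 7.49, 7.52 and 4.99 in activated cultures. Activated replicates 1 and 2 stood far above the controls and replicate 3 only just above. The difference was 2.35 ± 0.68 (SE), or 5.10-fold (limma, adjusted p = 0.428). Sema3d, a further secreted ligand of this class, was at 5.63, 5.15 and 3.28 in controls and at 7.20, 6.55 and 6.14 in activated cultures. Control replicate 3 stood below the other controls, and the difference of 1.94 ± 0.61 (SE) was 1.24 without it (limma, adjusted p = 0.478 with it). Sema3b was at 4.34, 4.11 and 4.08 in controls, with 1 of these arrays above the olfactory receptor level, and at 4.55, 5.95 and 5.02 in activated cultures. Its difference of 0.99 ± 0.36 (SE) was 0.61 without activated replicate 2, the highest array (limma, adjusted p = 0.565 with it).

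Sema3e, which unlike most of its class binds plexin D1 directly, was lower in activated cultures, at 7.76, 7.66 and 7.85 against 8.74, 9.28 and 8.15 in controls. The activated arrays lay close together and each below each control, with a difference of -0.97 ± 0.31 (SE; limma, adjusted p = 0.490). Sema3a, the classical repellent of growing axons and a factor that muscle precursors secrete, was at 8.98, 8.62 and 7.29 in controls and at 7.80, 7.81 and 7.68 in activated cultures. Control replicate 3 lay below all activated arrays, so the groups overlapped, and the difference of -0.53 ± 0.42 (SE) was -1.04 without that control, -0.19 without control replicate 1 and -0.82 after quantile normalization. Sema3g, a ligand of neuropilin 2, was at 4.71, 4.02 and 4.16 in controls and at 3.93, 3.71 and 3.81 in activated cultures. It differed by -0.48 ± 0.25 (SE), without overlap, and was above the olfactory receptor level on 1 array only. The difference was -0.28 without control replicate 1 and -0.30 after cyclic loess. Olfactory receptor genes themselves had a median difference of -0.16, and 864 of 1083 were lower in activated cultures. After quantile normalization their median difference was -0.04. Sema3g, Sema6b, Epha8 and Ephb1 then differed by -0.36, -0.41, -0.29 and -0.29. The part of the olfactory receptor shift in the differences of these 4 genes was not tested.

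**Figure D2:**
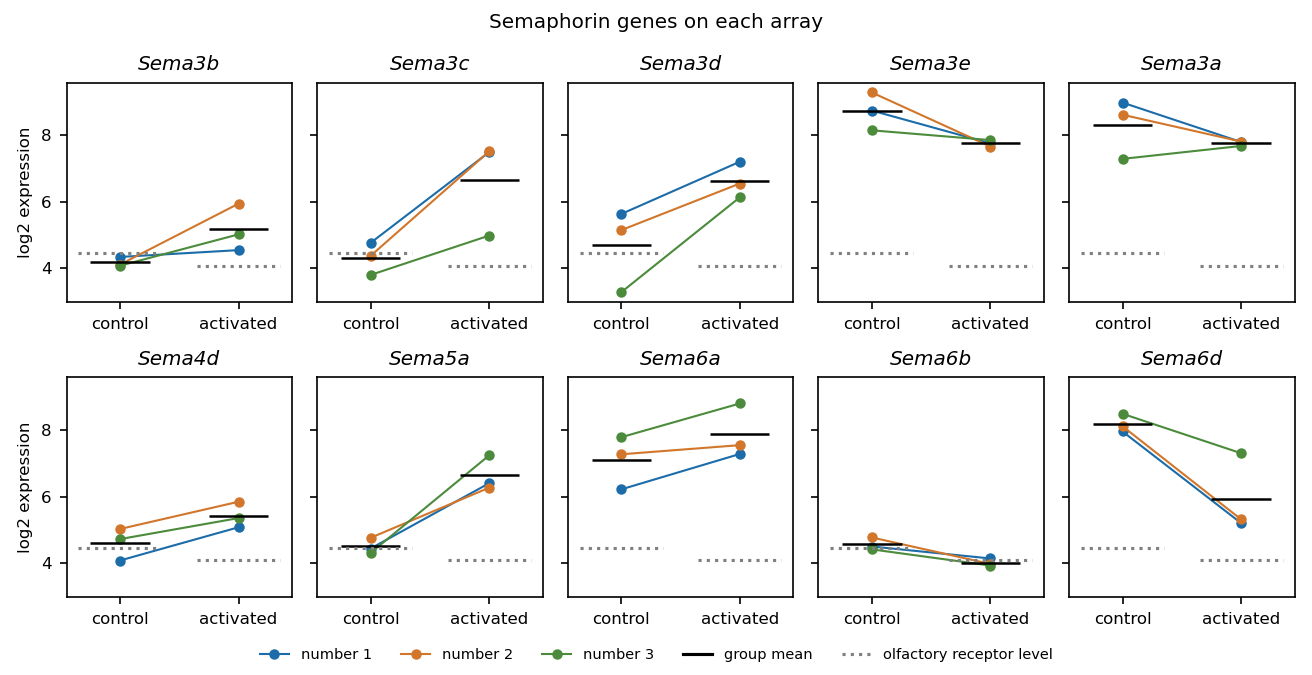
Log2 expression of 10 semaphorin genes on each array, with lines joining control and activated arrays of the same replicate number, black bars at group means and dotted lines at the mean olfactory receptor level of each group. Sema3c, Sema3d and Sema5a are higher on all 3 activated arrays and Sema6d lower; activated replicate 3 lies nearest the controls for Sema3c and Sema6d.

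Among the membrane-bound semaphorins, Sema5a and Sema4d were higher and Sema6d and Sema6b lower in activated cultures. Sema5a, a transmembrane semaphorin with thrombospondin repeats that binds plexin B3, was at 4.44, 4.76 and 4.31 in controls and at 6.40, 6.27 and 7.24 in activated cultures. The gap between the groups was wider than the spread within either of them. The difference was 2.13 ± 0.31 (SE), or 4.39-fold, and in all 16 alternatives it stayed between 1.73 and 2.45. In controls Sema5a was above the olfactory receptor level on 1 of 3 arrays and in activated cultures on 3. Sema6d, a ligand of plexin A1, had the largest negative difference of the set, with 7.96, 8.11 and 8.49 in controls and 5.20, 5.32 and 7.30 in activated cultures. Activated replicates 1 and 2 were far below the controls and replicate 3 was between. The difference was -2.24 ± 0.55 (SE), so controls were 4.74-fold higher (limma, adjusted p = 0.345).

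Sema4d, the ligand of plexin B1 also known as CD100, was at 4.08, 5.03 and 4.72 in controls and at 5.08, 5.85 and 5.36 in activated cultures, a difference of 0.82 ± 0.33 (SE). The groups only just failed to overlap, while within the numbered pairs the differences were 1.00, 0.82 and 0.63. Sema6a, a ligand of plexins A2 and A4, was at 6.22, 7.27 and 7.79 in controls and at 7.28, 7.55 and 8.80 in activated cultures. Its groups overlapped although each activated array exceeded the control of its number, by 1.06, 0.27 and 1.01 (limma, adjusted p = 0.736). The group difference of 0.78 was 0.35 without control replicate 1, 0.32 without activated replicate 3 and 0.49 after quantile normalization. Sema6b, a ligand of plexin A4, was at 4.50, 4.77 and 4.42 in controls and at 4.14, 3.98 and 3.93 in activated cultures, a difference of -0.55 ± 0.21 (SE) without overlap. In each group only 1 of its arrays was above the olfactory receptor level. The remaining members, Sema4a, Sema4b, Sema4c, Sema4f, Sema4g, Sema5b, Sema6c and the GPI-anchored Sema7a, as well as the secreted Sema3f, had differences between -0.23 and 0.09. Of these, Sema4a, Sema4f and Sema4g were above the olfactory receptor level on no array.

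Of the 11 plexins and neuropilins, Nrp2 alone had an unadjusted p under 0.05, a share of 9.09% that is near the 7.86% of all genes. Nrp2, the co-receptor for class 3 ligands such as Sema3c, was at 4.00, 4.02 and 4.48 in controls and at 4.80, 4.83 and 5.87 in activated cultures. All 3 controls lay below the olfactory receptor level and all 3 activated arrays above it. With each control value raised to that level on its array, the difference was 0.70, or 1.62-fold. The fitted difference was 1.00 ± 0.34 (SE; limma, adjusted p = 0.528), and 0.65 without activated replicate 3. Nrp1, the main co-receptor for Sema3a, had the opposite sign, at 6.70, 6.99 and 5.44 in controls and 5.45, 5.51 and 6.05 in activated cultures. The groups overlapped, and the difference of -0.71 ± 0.42 (SE) was -0.40 without control replicate 2 and -1.18 without control replicate 3. Over all 16 alternatives it ran from -1.37 (with the block, without the pair numbered 3) to -0.32 (with the block, without the pair numbered 2). The difference in sign between Nrp1 and Nrp2 was not tested.

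Plxnb2, a plexin B that binds class 4 semaphorins, was at 6.56, 6.99 and 6.34 in controls and at 7.13, 7.12 and 7.15 in activated cultures. The groups did not overlap, but the difference was small, 0.50 ± 0.24 (SE), and 0.25 after quantile normalization (limma, adjusted p = 0.658 as deposited). Plxna1, a receptor for Sema6d and a partner of neuropilins, was at 7.17, 8.22 and 8.98 in controls and at 7.79, 8.43 and 9.44 in activated cultures. Its level followed the replicate number more than the group, with differences of 0.62, 0.21 and 0.47 within the numbered pairs. Plxna2, a receptor for Sema6a, differed by 0.32 ± 0.28 (SE), which was 0.06 after quantile normalization. Plxnb1 and Plxna3 differed by -0.46 ± 0.35 and -0.39 ± 0.32 (SE), with overlapping groups; without control replicate 3 the differences were -0.19 and -0.09. Plxnd1, the receptor of Sema3e, was at 5.06 ± 0.11 in controls and 5.00 ± 0.53 in activated cultures (SD, n = 3). Plxnb3, to which Sema5a binds, Plxna4 and Plxnc1, the receptor of Sema7a, were above the olfactory receptor level on no array.

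**Figure D3:**
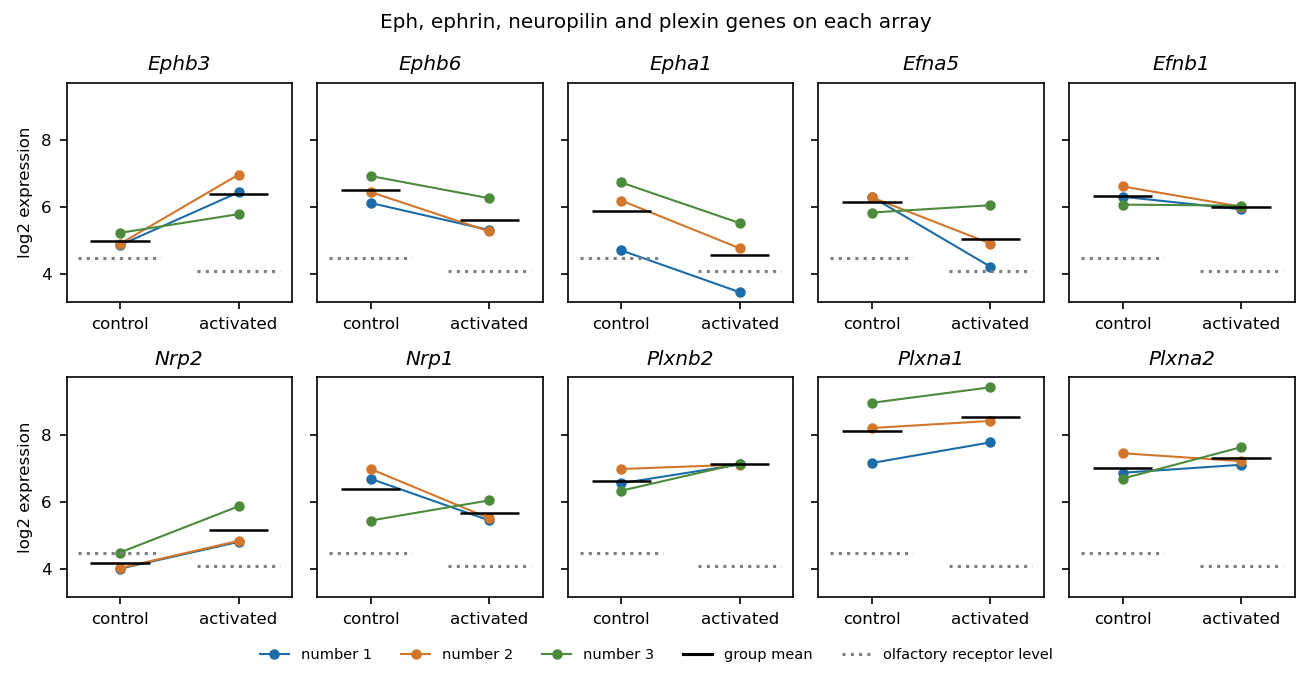
Log2 expression of 10 Eph, ephrin, neuropilin and plexin genes on each array, with lines joining arrays of the same replicate number, black bars at group means and dotted lines at the mean olfactory receptor level of each group. Ephb3 and Nrp2 are higher on all 3 activated arrays, Epha1 is lower within each numbered pair although its groups overlap, and Plxna1 follows the replicate number.

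Among the 13 Eph receptors, Ephb3 was higher and Ephb6 and Epha1 lower, while most EphA receptors differed little. Ephb3, a receptor for ephrin-B ligands and a known TCF target in the intestine, was at 4.86, 4.90 and 5.23 in controls and at 6.44, 6.97 and 5.79 in activated cultures. Each activated array lay above each control, by least in replicate 3. The difference was 1.41 ± 0.33 (SE), or 2.65-fold (limma, adjusted p = 0.325). Ephb6, which lacks kinase activity, was at 6.13, 6.45 and 6.93 in controls and at 5.31, 5.27 and 6.27 in activated cultures. The groups overlapped, since control replicate 1 lay below activated replicate 3, but within each numbered pair the activated array was lower, by 0.81, 1.18 and 0.67 on the log2 scale. The difference was -0.89 ± 0.35 (SE; limma, adjusted p = 0.607). Epha1, a receptor for ephrin-A ligands, was at 4.70, 6.20 and 6.74 in controls and at 3.45, 4.76 and 5.52 in activated cultures. The values spread widely with the replicate number in both groups, and the differences within pairs were alike, -1.26, -1.43 and -1.22. The adjusted p of Epha1 was 0.684 in limma without the block and 0.0669 with it, and ran from 0.0512 to 1.00 over the alternatives. The difference was -1.30 ± 0.66 (SE), and -0.74 without activated replicate 1.

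Ephb4, the receptor of ephrin-B2 on veins, differed by -0.38 ± 0.36 (SE), and by -0.02 without activated replicate 1. Epha4, a receptor that binds both ephrin classes, differed by -0.37 ± 0.38 (SE), and by -0.08 without control replicate 1. Epha2, a receptor common on epithelial cells, was at 7.54 ± 0.32 in controls and 7.56 ± 0.63 in activated cultures (SD, n = 3), and Epha7 at 5.10 ± 0.08 and 5.10 ± 0.21. Both had group means that were almost the same, with more spread among activated cultures. Epha10 was at 4.87 ± 0.33 and 4.66 ± 0.22, a gap smaller than the SD of the controls. Epha8 was at 4.53, 4.03 and 4.06 in controls and at 3.76, 3.84 and 3.74 in activated cultures, a difference of -0.43 ± 0.23 (SE) without overlap, and Ephb1 differed by -0.47 ± 0.26. The difference of Epha8 was -0.27 without control replicate 1 and -0.24 after cyclic loess, and that of Ephb1 -0.29 both without activated replicate 2 and after quantile normalization. Both genes lay below the olfactory receptor level on all arrays, as did Epha3, Epha5 and Epha6. Ephb2 is not analysed here.

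Of the 8 ephrins, Efna5 had the largest difference. Efna5, a GPI-anchored ligand of EphA receptors, was at 6.31, 6.29 and 5.84 in controls and at 4.21, 4.91 and 6.06 in activated cultures. Activated replicates 1 and 2 were below all controls, and replicate 3 was within their range. The difference of -1.09 ± 0.45 (SE; limma, adjusted p = 0.627) was -0.66 without activated replicate 1. Efnb1, a transmembrane ligand of EphB receptors such as Ephb3, was at 6.31, 6.62 and 6.08 in controls and at 5.94, 6.01 and 6.05 in activated cultures. The groups just failed to overlap, and the difference of -0.34 ± 0.23 (SE) was -0.20 without control replicate 2 and -0.21 after subtraction of array medians (limma, adjusted p = 0.736 as deposited). Efnb2, the ligand that marks arteries, had the widest spread of the ephrins, at 5.29, 7.06 and 5.60 in controls and 5.28, 6.08 and 7.81 in activated cultures. Its within-pair differences ran from -0.98 to 2.22, and the sign of the group difference turned from 0.41 to -0.30 without activated replicate 3. Efna1 differed by -0.34 ± 0.35 (SE), and by -0.17 after cyclic loess. Efna2, Efna3, Efna4 and Efnb3 had differences between -0.21 and 0.01, and Efna3 and Efnb3 were above the olfactory receptor level on no array.

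**Figure D4:**
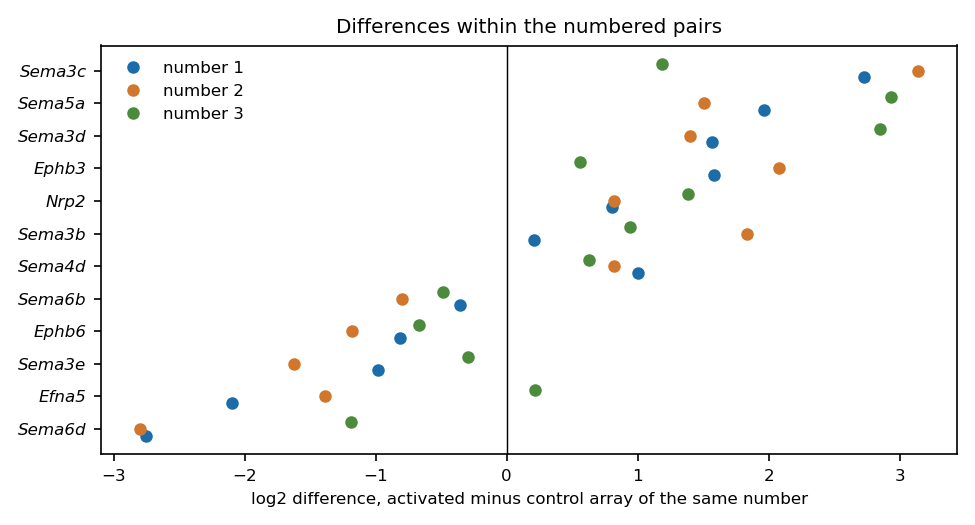
Log2 difference of the activated minus the control array of the same replicate number, for the 12 guidance genes with an unadjusted p under 0.05 in limma. For 11 genes the 3 differences share a sign; Efna5 differs by -2.09, -1.39 and 0.22, and number 3 gives the smallest size for Sema3c, Sema4d, Sema6d, Sema3e, Ephb3, Ephb6 and Efna5 and the largest for Sema3d, Sema5a and Nrp2.

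Intracellular partners of these receptors were taken from lists of 24 genes for Eph and ephrin signalling and 32 for semaphorins and plexins. No partner passed after adjustment in limma with all 6 arrays and no block. With the block and without the pair numbered 3, Vav3 (limma, adjusted p = 0.0174), Inppl1 (0.0319), Rasa1 (0.0338) and Erbb2 (0.0382) passed, of the partners named here. In that setting 492 of the 23279 genes passed. When the pair numbered 1 or 2 was left out instead, 0 genes did. In the Eph list 12 members were higher and 12 lower, with a median difference of -0.02, and 4 had an unadjusted p under 0.05 (16.7%; all genes, 7.86%). These were Vav3, a signalling protein that acts downstream of Eph receptors, at -1.71 ± 0.34 (SE), the Src-family kinase Fyn at 1.37 ± 0.30, the phosphoinositide phosphatase Inppl1 (SHIP2) at 1.34 ± 0.35 and the Ras GTPase-activating protein Rasa1 at -0.95 ± 0.38. Arrays of the groups did not overlap for Vav3, Fyn and Inppl1. Within the numbered pairs Rasa1 differed by -1.43, -1.72 and 0.31 (limma with the block, unadjusted p = 0.0653). In the semaphorin list 19 members were higher and 13 lower, with a median difference of 0.06, and 4 had an unadjusted p under 0.05, all of them higher (12.5%; all genes, 7.86%). They were the receptor kinase Erbb2, which associates with plexin B receptors, at 1.46 ± 0.27 (SE), Fyn, which stands in both lists, the integrin Itgb1, a receptor for Sema7a, at 1.10 ± 0.32 and the actin-oxidizing enzyme Mical2 at 0.74 ± 0.22. After quantile normalization Itgb1 differed by 0.70 and Mical2 by 0.47.

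In the other guidance families (Slits, Robos, netrins and their receptors, RGMs, FLRTs and VEGF receptors) 10 of 29 genes were higher, and 2 had an unadjusted p under 0.05 (6.90%; all genes, 7.86%), a share near that of all genes. These 2 were Robo2, a Slit receptor, at 1.02 ± 0.28 (SE), and the adhesion protein Flrt2 at 1.38 ± 0.57. Robo2 was below the olfactory receptor level on all arrays. The difference of Flrt2 was 0.74 without control replicate 3, and with the block its unadjusted p was 0.0518 (limma). Flrt3, from the same family, differed by 1.15 ± 0.55, and by 0.49 without activated replicate 3, and Rgma, a ligand of neogenin, by 0.57 ± 0.26.

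Markers of other cells were measured beside these genes, since neurons, Schwann cells, vessels and fibroblasts express many guidance genes. In bulk RNA fewer cells of a type and less RNA per cell cannot be told apart. Endothelial markers had 2 of 10 members higher, a summed level (log2) of 6.81 to 6.99 in controls and 6.48 to 6.74 in activated cultures, and 8 of 10, with Pecam1 and Cdh5 among them, below the olfactory receptor level on all arrays. Of 9 fibroblast markers 2 were higher, and their summed level was 7.92 to 8.44 in controls and 7.37 to 8.29 in activated cultures, with Pdgfra and Dcn below the olfactory receptor level on all arrays and 3 members, Col1a1, Col3a1 and Fbln1, above it on all. Fbln1 and Cd34 were lower in activated cultures without overlap, 2 of the 9 (all genes, 7.4%). Fbln1 was at 5.51 ± 0.40 in controls and 4.40 ± 0.40 in activated cultures (SD, n = 3). Cd34 differed by -0.62 and was above the olfactory receptor level on 1 array. Thy1 went the other way, at 4.62 ± 0.45 in controls and 5.79 ± 0.71 in activated cultures, with overlapping groups. Leukocyte markers had 1 of 9 members higher, with a summed level of 7.07 to 8.24 and 6.99 to 7.60. Ptprc was below the olfactory receptor level on all arrays, and 3 members (Cd68, Laptm5 and Fcer1g) were above it on all. In activated cultures 4 of the 9 lay lower without overlap (all genes, 7.4%). These were Csf1r, C1qb, Laptm5 and Fcer1g, with differences of -0.54, -0.54, -0.45 and -0.67. Csf1r was above the olfactory receptor level on no array and C1qb on 1. Neural and Schwann markers had 1 of 8 members higher, the neuronal tubulin Tubb3 at 3.16 ± 0.74 (SE). Their summed level was 7.37 to 8.42 in controls and 8.83 to 9.43 in activated cultures. Within the numbered pairs Tubb3 differed by 3.93, 0.96 and 4.58. The other 7 members had lower means, so only Tubb3 raised the summed level. Of the 7, Mbp (-0.69 ± 0.21, SE) and the Schwann factor Sox10 (-0.52 ± 0.23) were lower without overlap. Sox10 was below the olfactory receptor level on all arrays, and Mbp was above it on 2.

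Markers of cell state also differed, though 0 passed after adjustment in limma without the block. Of 12 markers of differentiated muscle 11 had higher means in activated cultures (all genes, 40.3%), with a median difference of 1.68. Ckm differed by -0.27. Arrays of the groups did not overlap for 8 of the 12. Their summed level was 11.6 to 13.0 in controls and 13.7 to 14.4 in activated cultures. Of 9 markers of dividing cells 9 were lower (all genes, 59.7%), with a median difference of -1.95. Their summed level was 10.4 to 11.1 in controls and 8.23 to 9.56 in activated cultures. Of 8 myoblast and muscle stem cell markers 6 had higher means, with Des at 1.56 and Vcam1 at -1.38. The part of these shifts in the differences of the guidance genes was not tested.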

How the data were processed

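Expression was measured on 6 arrays of primary mouse myoblasts, 3 control and 3 activated. The authors' deposited table holds log2 expression values. Per the submitters' processing notes RMA and Partek were used; the sources used here state no version or settings. A platform annotation gave 1 symbol to 23281 of 24479 rows. Where a symbol had several rows (2 symbols), the one with the highest mean was kept. All 52 guidance genes had the same symbol and Entrez number in RefSeq's gene table (GRCm38.p6).

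The fit used limma 3.58.1 in R 4.3.3, with group as the only term, two-sided moderated tests and Benjamini-Hochberg adjustment over all named rows, no filter and no pseudocount. It was tested on simulated data. The number of arrays limits the precision. Members and lists were chosen with earlier results of these data known. Values on each array are given for members with an unadjusted p under 0.05, for members whose groups did not overlap, for the member with the smallest p in each family, and for some others chosen after their values were seen; differences under 0.3 are given as a range. Of each partner list the 4 members with the smallest p are named; in the other guidance families these are Robo2, Flrt2, Rgma and Flrt3. Arrays of the same number deviated together from their group means across genes, at correlations of 0.38, 0.49 and 0.45, so by the criterion of 0.1 for each pair the numbers in the sample titles were taken to pair them. Alternatives were median subtraction, quantile normalization, cyclic loess, the replicate block, a filter on dim genes, another moderation and leaving out arrays or pairs.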

Additional observations from a re-analysis of the deposited data

How the results depend on the processing

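Among 16 alternatives, the count of all genes past an adjusted p of 0.05 was 31 with the replicate block and 0 in the others that kept all arrays. It ran from 0 to 28 when 1 array was left out and from 0 to 492 when a pair was left out with the block. The count of guidance genes with an unadjusted p under 0.05 was 12 as deposited (all genes, 7.86%). With all arrays kept it was 8 to 14, where the share of all genes ran from 7.57% to 16.6%. The 8 came from a filter that left 35 guidance genes, and 9.78% of the 11976 genes left by it had such a p. Without 1 array the count of guidance genes ran from 7 to 11, where the share of all genes ran from 3.90% to 13.2%. Without a pair it ran from 10 to 15, where that share was 11.97% to 15.14%. Without control replicate 2 it was 8 of 52 guidance genes against 13.2% of all genes. Of the 12 genes, 11 kept an unadjusted p under 0.05 with the block and 11 after quantile normalization. With the block no guidance gene passed an adjusted p of 0.05, as without it. The sign of Ctnnb1 turned to -0.35 after quantile normalization, with and without the block, and to -0.39 after cyclic loess; leaving out arrays or pairs gave -0.28 to 0.34. Plxna1 ran from -0.044 (without control replicate 1; -0.012 without activated replicate 3) to 0.86 and Efnb2 from -0.49 to 1.11 when arrays or pairs were left out. The cause was not tested. Of the 23 members with differences under 0.3, the sign of 12 turned under median subtraction, quantile normalization or cyclic loess. For the 13 guidance genes below the olfactory receptor level on all arrays the signal limits what could be seen.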

Other observations

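Sema3d, Sema3a and Sema3e lie close together on mouse chromosome 5 in RefSeq's gene order, with 0 protein-coding genes between Sema3d and Sema3a and 3 between Sema3a and Sema3e, and Sema3c follows after 15 more. Their differences did not share a sign: 1.94 for Sema3d, -0.53 for Sema3a, -0.97 for Sema3e and 2.35 for Sema3c. The ephrin genes Efna1, Efna3 and Efna4, which are neighbours on chromosome 3, differed by -0.34, -0.21 and 0.01.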
